A study of Homo sapiens with 2 samples.

Results

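The 10 genes described here, DKK1, DKK3, LRP5, LRP6, AXIN2, WNT5A, WNT5B, CTNNB1, TCF7L2 and FZD7, encode Wnt ligands, antagonists, receptors and parts of the beta-catenin pathway. They were chosen by name, with earlier results of these data known. Every probe set that the platform's annotation pairs with one of them was taken: 33 of the 54675 probe sets on the array, and 10 of the 19775 genes that it names. RNA came from MDA-MB 231, a human line of invasive breast cancer that lacks the estrogen receptor. The compared cells were stably transfected with the plasmid pIRES2-EGFP carrying S100A7 (the S100A7 array) or with the same plasmid without it (the vector array), so both carry the EGFP plasmid. Whether each stable line is 1 clone or a pool is not given in the sources used here. The series asks which genes are regulated by S100A7, a small calcium-binding protein also called psoriasin. There was 1 array per group. No difference below has therefore been checked against the spread between cultures, and no test or p-value was possible.

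In the canonical Wnt pathway, a secreted Wnt protein binds a Frizzled receptor together with the co-receptor LRP5 or LRP6. This stops a cytoplasmic complex built on the AXIN scaffolds from marking beta-catenin (CTNNB1) for destruction, and beta-catenin then switches on target genes with the TCF and LEF DNA-binding factors. DKK1 is a secreted antagonist that occupies LRP5 and LRP6, and is itself a target gene of beta-catenin. WNT5A and WNT5B mostly signal without beta-catenin, and such signals are known for their part in the movement of breast cancer cells.

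Values are MAS5 intensities on a linear scale. Each array's own median, taken without control probe sets, was used as a floor in place of detection calls: 71.0 with the vector and 69.0 with S100A7. A probe set counted as measured when either array put it at or above the floor. Where 1 side lay below the floor, the fold can only be a minimum, and "at least" stands before it. Where a gene had several measured probe sets, the brightest stood for it. The others of the 10 genes are given beside it. The arrays number 1 per group, which limits the precision. As a partial guide, log2 ratios of probe sets of the same gene differed with a pooled standard deviation of 0.36 over the 6465 genes with more than 1 measured probe set. That spread lies within these arrays and not between cultures, so it is no cutoff for a difference.

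The S100A7 probe set read 12.0 with the vector, under the floor, and 13232 with S100A7. S100A7A, its close relative, read 86.9 and 79.2. All 8 genes listed as typical of MDA-MB 231 were measured, each within 2-fold between the arrays on its brightest probe set. The mesenchymal filament gene VIM read 38087 and 35575. PLAUR read 8260 with the vector and 4300 with S100A7 (1.92-fold lower), and another PLAUR probe set read 1629 and 688 (2.37-fold lower). FN1 was 1.52-fold lower on its brightest probe set and 2.27-fold lower on another (759 and 334). CAV1 was 1.38-fold lower, while CD44 (1.09-fold) and KRT8 (1.08-fold) were higher. Of 7 genes listed as low or absent in this line, ESR1, PGR, CDH1 and FOXA1 did not reach the floor on either array, and ERBB2 (497 with the vector, 540 with S100A7), EPCAM (544 and 513) and GATA3 (720 and 752) were above it. Of 16 markers of blood, vessel, stromal, nerve and liver cells, 4 were measured and 0 differed by 2-fold, although the CDH5 ratio is a minimum. These were COL1A1 (842 with the vector, 487 with S100A7, 1.73-fold lower on its brightest probe set), ACTA2 (149 and 132), PECAM1 (132 and 168) and CDH5 (24.8, below the floor, and 79.0). The COL1A1 probe sets 1556499_s_at (153 and 259) and 202310_s_at (202 and 271) went the opposite way, so COL1A1 has no single direction. The part of these 4 markers in the results was not tested. The summed intensity of the listed markers with a probe set was 1487 with the vector and 1080 with S100A7. PTPRC, CD3E, LYZ, TYROBP, VWF, DCN and LUM were below the floor on both.

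Among the 10 genes, DKK1 had the largest ratio, at 2.49 times its vector intensity in S100A7 cells. AXIN2, WNT5B and FZD7 were higher by 1.59-fold to 1.97-fold on their brightest probe sets, and LRP6 by 1.37-fold. CTNNB1, TCF7L2 and DKK3 were higher by less than 1.25-fold, LRP5 was 1.25-fold lower, and WNT5A was below the floor on both arrays. In all, 9 of the 10 genes and 23 of their 33 probe sets were measured. Of the 9 genes, 1 was past 2-fold upward and 0 downward. Among all 12688 measured genes these shares were 1.8% upward and 2.25% downward, 4.05% in all. A mark of 1.5-fold was passed upward by 4 of the 9 (DKK1, AXIN2, WNT5B and FZD7), against 8.12% of all measured genes. A log2 ratio above 0 was found for 8 of the 9, against 45.8% of all measured genes. The median log2 ratio of the 9 was 0.46, against -0.04 over all measured genes. It was 0.21 with the median over each gene's probe sets in place of the brightest. AXIN2 and WNT5B were higher on their brightest probe sets alone. The 10 genes were chosen with earlier results of these data known. These comparisons with all measured genes are therefore descriptions and not support for a change.

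**Figure D1:**
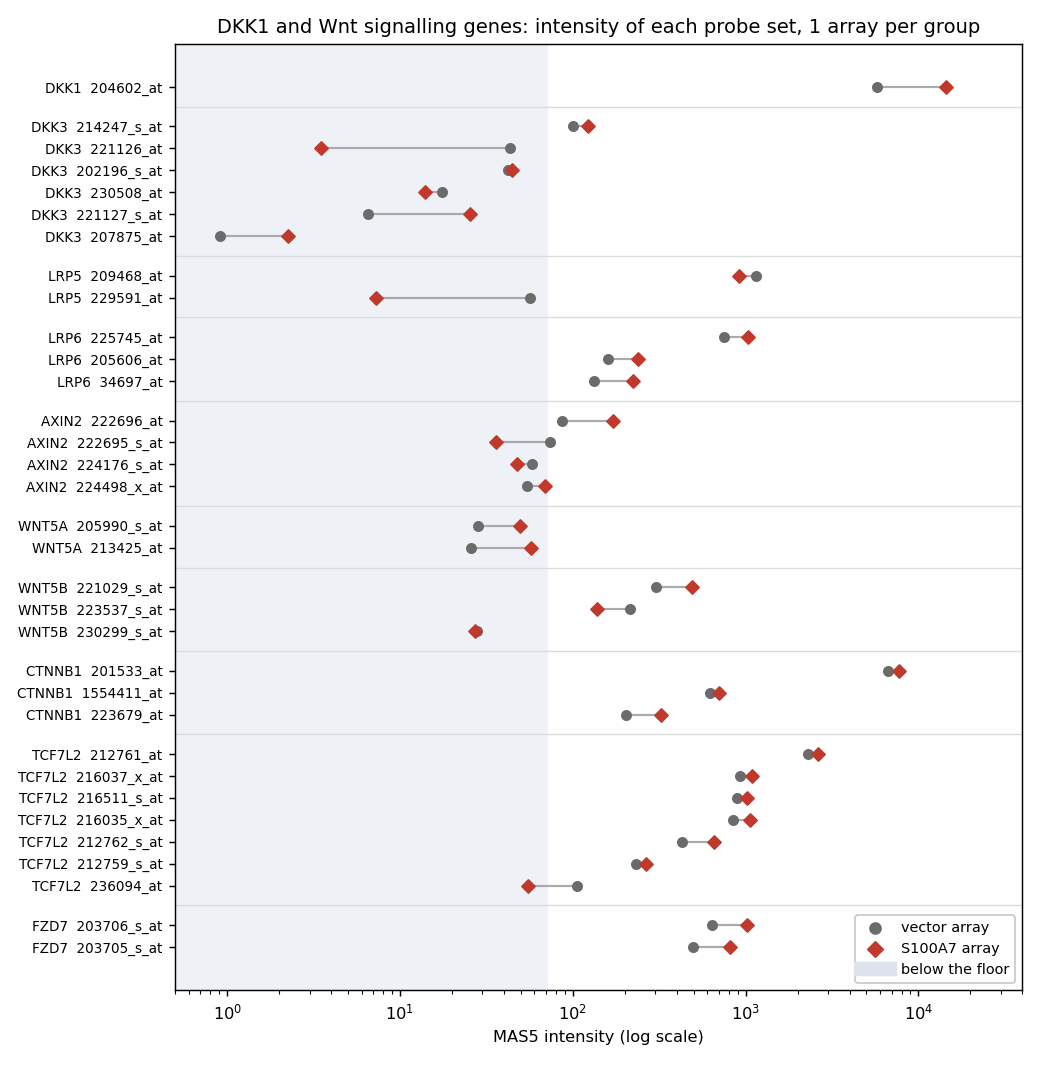
MAS5 intensity (log scale) of each of the 33 probe sets on the vector array (grey circles) and the S100A7 array (red diamonds), 1 array per group, with the range below the vector floor of 71.0 shaded. DKK1 runs from 5779 to 14388, both LRP6 and FZD7 shift to the right on every probe set, and most DKK3 and both WNT5A probe sets lie in the shaded range.

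DKK1, the secreted antagonist of LRP5 and LRP6, was read by 1 probe set, 204602_at, with an intensity of 5779 with the vector and 14388 with S100A7. Both values lay far above the floor, and the log2 ratio was 1.32. A higher ratio was found for 93 of the 12688 measured genes. The 3748 genes with the highest mean intensity were taken from the 11242 above the floor on both arrays. Of them 19, or 0.507%, were at least 2-fold higher, and 6 had a higher ratio than DKK1. DKK1 was chosen with earlier results of these data known, so these ranks are descriptions and not support for a change. With a single probe set there was no second reading of DKK1 on these arrays. Each array reads the RNA of a whole culture, so more DKK1 RNA in every cell and more cells with DKK1 RNA cannot be told apart.

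**Figure D2:**
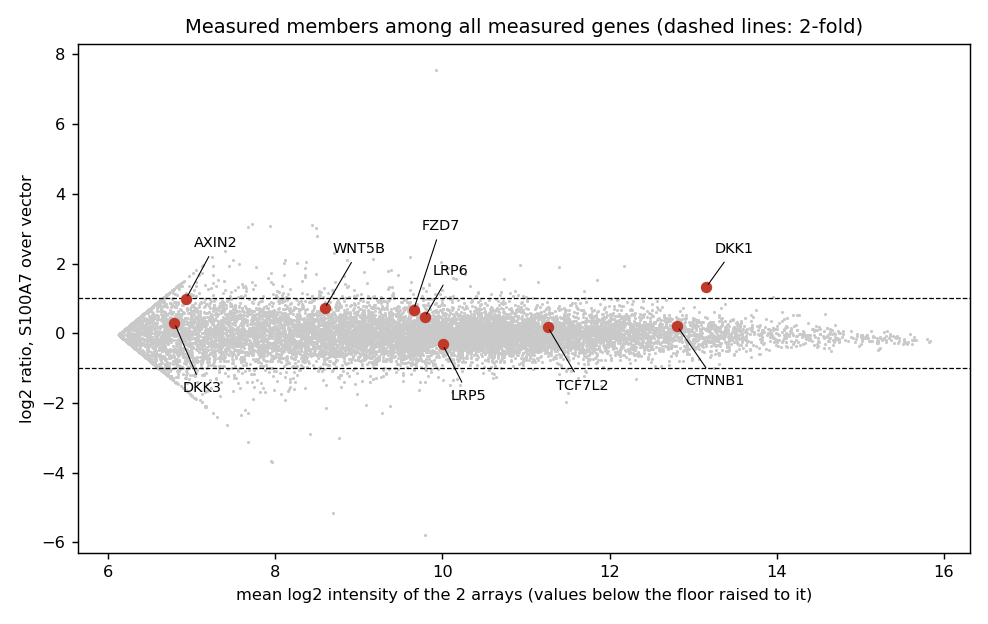
Log2 ratio of the S100A7 over the vector array against mean log2 intensity for the 12688 measured genes (grey), with the 9 measured Wnt genes in red and dashed lines at 2-fold. DKK1, at a log2 ratio of 1.32, lies above the upper line at the bright end, AXIN2 (0.98) lies just under it at the dim end, and LRP5 (-0.32) is the 1 red point below 0.

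Genes around DKK1 on chromosome 10 were also higher, by smaller amounts. Of the 40 measured genes nearest to it, 20 on each side in the gene order of assembly GRCh38.p14, 29 had a log2 ratio above 0 and their median was 0.37, against 0.21 for the 495 measured genes of the chromosome. The 32 neighbours above the floor on both arrays ranged from -0.48 to 0.97, with a median of 0.40, and 0 of them reached 2-fold. The other 8 had 1 side at the floor, so their ratios are minima and could lie further from 0. After the neighbours' median was subtracted, the log2 ratio of DKK1 was 0.94, or 1.92-fold, under the 2-fold mark. The part of this regional shift in the DKK1 value was not tested.

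**Figure D3:**
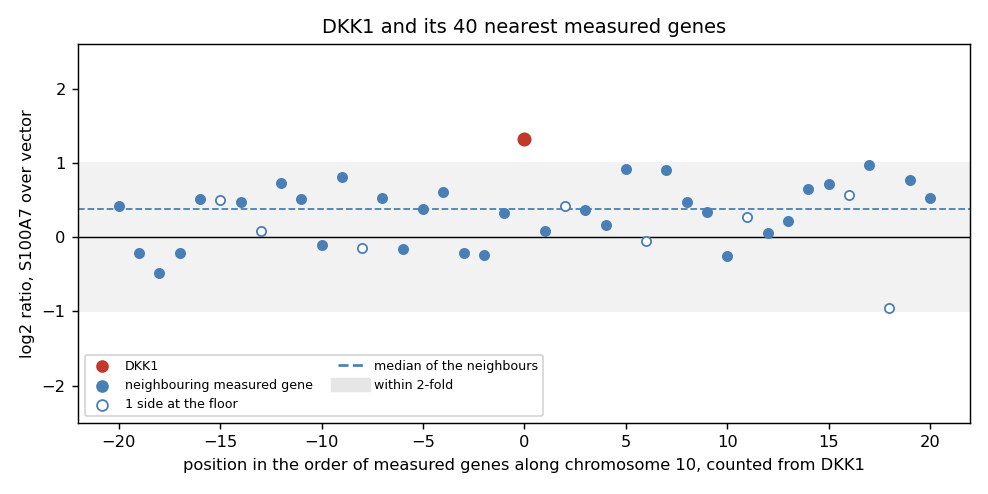
Log2 ratio of DKK1 (red) and of the 40 measured genes nearest to it on chromosome 10 (blue, open where 1 side is at the floor), by position in the gene order. DKK1 lies at 1.32 and the 32 filled neighbours at -0.48 to 0.97, the 8 open circles are minima, and the median of all 40 is the dashed line at 0.37.

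The sequence before the DKK1 start is shown because DKK1 was the 1 gene of the 10 past 2-fold and is itself a target of beta-catenin, whose TCF and LEF partners bind a short known motif. It holds the 250 bases upstream of the RefSeq start at chr10:52314031-52314280 (GRCh38.p14, plus strand). Capitals mark matches to the TCF motif, searched on both strands as AACAAAG, with ATCAAAG, with TACAAAG or with TTCAAAG as its variants, and to TATAAA, the core of the TATA box, searched on the gene's strand.
DKK1: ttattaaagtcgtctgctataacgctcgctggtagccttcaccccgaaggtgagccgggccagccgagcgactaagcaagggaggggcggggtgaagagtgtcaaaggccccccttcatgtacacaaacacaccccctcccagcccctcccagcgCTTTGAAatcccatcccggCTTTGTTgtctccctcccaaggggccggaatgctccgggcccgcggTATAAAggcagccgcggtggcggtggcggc
The TCF matches, TTCAAAG at 95 to 89 bases before the start and AACAAAG at 76 to 70, lie on the opposite strand and overlap no other match. TATAAA lies at 30 to 25 bases before the start. At least 1 TCF match was present in 12% of the 35093 RefSeq promoters of this length and at least 2 in 1.21%, and 6.8% held TATAAA. Of the 10 genes, 6 were matched in the table, with 10 entries (DKK1, CTNNB1, LRP5, TCF7L2, WNT5A and WNT5B). Besides DKK1, 1 of the 3 TCF7L2 entries held a TCF match and the other entries held 0. A match is a stretch of letters, and no binding was measured here.

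DKK3, a relative of DKK1 that is often silenced in tumours and is not a typical LRP6 antagonist, differed far less. Its 1 measured probe set, 214247_s_at, read 99.8 with the vector and 123 with S100A7, a log2 ratio of 0.30. The other 5 DKK3 probe sets never reached the floor, at 0.904 to 43.6 with the vector and 2.26 to 44.5 with S100A7, so no fold is given for them. The DKK3 difference was smaller than the 0.36 found between probe sets of a gene. That spread is not one between cultures, so it cannot tell whether DKK3 differs.

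The co-receptors that DKK1 occupies, LRP5 and LRP6, differed in opposite directions. LRP6 was read by 3 probe sets, all higher in S100A7 cells. They read 754 and 1037 (225745_at), 160 and 237 (205606_at), and 133 and 222 (34697_at) with the vector and with S100A7. The log2 ratios were 0.46, 0.57 and 0.74, each under 2-fold. The 0.36 between probe sets is not a spread between cultures, so it cannot tell whether LRP6 or LRP5 differs. LRP5 read 1145 with the vector and 919 with S100A7 on 209468_at, a log2 ratio of -0.32, also under 2-fold. Its other probe set, 229591_at, was below the floor on both arrays, at 56.4 and 7.27.

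FZD7, a Frizzled receptor that is often found at high levels in triple-negative breast cancer, was higher on both of its probe sets. They read 639 and 1017 (203706_s_at) and 498 and 817 (203705_s_at) with the vector and with S100A7, log2 ratios of 0.67 and 0.71. These agree closely, but the suffix _s_at marks probe sets that can match several transcripts, and both carry it. The 40 measured genes nearest to FZD7 on chromosome 2 had a median log2 ratio of 0.18. After that median was subtracted, the log2 ratio of FZD7 was 0.49, or 1.41-fold. FZD7 and LRP6, with CTNNB1, were the 3 of 6 genes with more than 1 measured probe set whose probe sets were all higher.

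The ligand WNT5A was not measured. Its probe sets read 28.3 and 49.7 (205990_s_at) and 25.9 and 57.5 (213425_at) with the vector and with S100A7, all below the floor, and no fold is given for it at that floor. Its close relative WNT5B was measured by 2 probe sets that went opposite ways. The brighter, 221029_s_at, read 301 with the vector and 493 with S100A7, a log2 ratio of 0.71, while 223537_s_at read 214 and 137, a log2 ratio of -0.64. The median of both was 0.03, and these arrays give no single direction for WNT5B. The remaining WNT5B probe set, 230299_s_at, read 28.1 and 27.1, below the floor.

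AXIN2 is the scaffold of the destruction complex that beta-catenin itself induces, which makes it a common readout of the canonical pathway. Its brightest probe set, 222696_at, read 86.9 with the vector and 172 with S100A7, 1.97-fold higher (log2 ratio 0.98) and close to the 2-fold mark from a vector intensity not far above the floor of 71.0. The other probe sets did not follow it. 222695_s_at read 74.2 with the vector and 35.8, below the floor, with S100A7, at least 1.08-fold lower. 224498_x_at read 54.5, below the floor, and 69.1, just above it, which gives no direction, and 224176_s_at read 58.2 and 47.7, below the floor. The higher value of AXIN2 therefore rests on 1 of its 3 measured probe sets. The 40 measured genes nearest to AXIN2 on chromosome 17 had a median log2 ratio of 0.31. After that median was subtracted, the log2 ratio of AXIN2 was 0.67, or 1.59-fold.

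Beta-catenin itself, CTNNB1, differed little. Its probe sets read 6674 and 7709 (201533_at), 623 and 702 (1554411_at), and 204 and 323 (223679_at) with the vector and with S100A7. The log2 ratios were 0.21, 0.17 and 0.66, all positive, with the dimmest probe set giving the largest. Intensities are RNA readings, and beta-catenin is controlled mainly as a protein, which was not measured.

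TCF7L2, a DNA-binding partner of beta-catenin, had 7 measured probe sets. The brightest, 212761_at, read 2300 with the vector and 2613 with S100A7, a log2 ratio of 0.18. 5 others were higher too, from 0.19 to 0.61, the last for 212762_s_at at 428 and 655. The 1 exception, 236094_at, read 106 with the vector and 55.3, below the floor, with S100A7, at least 1.53-fold lower. TCF7L2 also lies on chromosome 10, where its 40 nearest measured genes had a median of 0.22, and its log2 ratio was -0.03 once that median was subtracted.

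**Figure D4:**
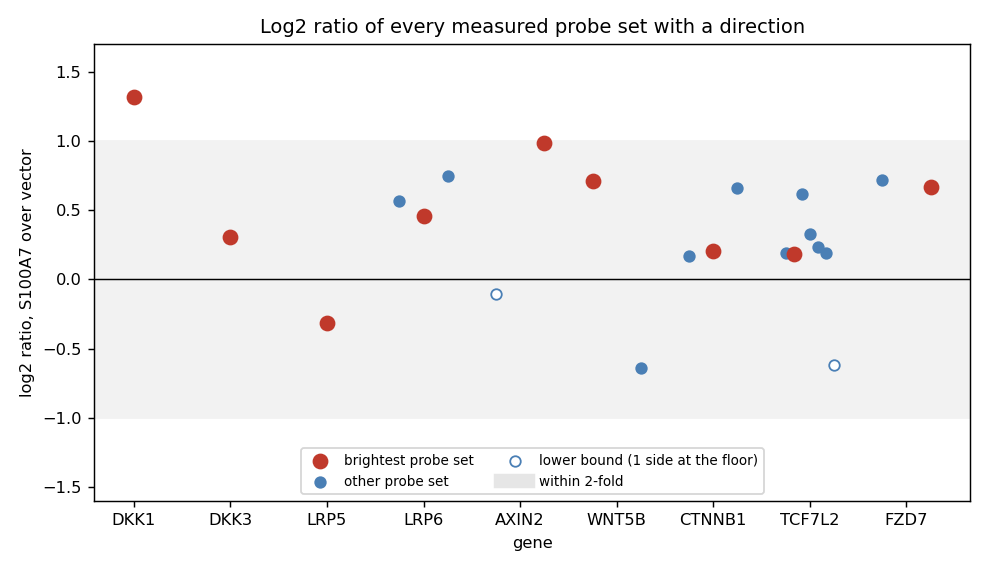
Log2 ratio of the S100A7 over the vector array for the 22 measured probe sets with a direction, by gene; red marks each gene's brightest probe set, blue the others, open circles lower bounds, and the grey band the range within 2-fold. DKK1 (1.32) is the 1 point outside the band, LRP6, FZD7 and CTNNB1 lie wholly above 0, and WNT5B, AXIN2 and TCF7L2 have points on both sides.

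Over all 22 measured probe sets with a direction, 18 had a log2 ratio above 0 and 4 below, against 48.7% above 0 among the 24341 such probe sets of the array. Probe sets of a gene share its RNA and are not separate samples, and the genes were chosen with earlier results of these data known. The pooled standard deviation between probe sets was 0.44 for the 6 of these genes with more than 1, against 0.36 over all such genes.

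In the wider Wnt pathway the lists held 151 genes and 100 reached the floor. Of these 53 had a log2 ratio above 0, or 53%, beside 45.8% of all measured genes, and 47 had one below. DKK1 was the 1 past 2-fold upward, and 3 were past it downward. That is 4% outside 2-fold, next to 4.05% of all measured genes, and a median log2 ratio of 0.02, next to -0.04. The sign of the list median was negative with the median over probe sets and without suffixed probe sets.

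Among ligands, 6 of 19 were measured and 0 were outside 2-fold. WNT7B was at least 1.77-fold lower on a probe set with the suffix _x_at (122 with the vector, 28.9 with S100A7), while 217681_at read 22.4, below the floor, and 72.5, higher by at least 1.02-fold. WNT10A read 72.4 and 90.7, close to the floor. WLS, which carries Wnt proteins to the cell surface and was the 1 measured gene of 3 for Wnt secretion and release, read 2002 and 2089 on its brightest probe set, and its other 2 had log2 ratios of 0.07 and 0.52. Among 19 secreted modulators 4 were measured, DKK1 the 1 outside 2-fold. SFRP1, a secreted decoy for Wnt proteins, read 20.8 with the vector and 80.6 with S100A7, at least 1.13-fold higher. DKK2, DKK4, WIF1, SOST and the R-spondin genes were below the floor on both arrays.

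Of 23 receptor genes 17 were measured, 10 with a log2 ratio above 0 and 0 outside 2-fold on the brightest probe set. On that reading PTK7, a pseudokinase co-receptor for Wnt signals, came nearest at a log2 ratio of 1.00 (192 with the vector, 383 with S100A7), just under 2-fold. FZD2 read 2075 and 3246 (1.56-fold higher) on its brightest probe set and 574 and 1158 (2.02-fold higher) on its other. With each array divided by its median, PTK7 (1.04) and AXIN2 (1.02) passed 2-fold. ZNRF3, a ubiquitin ligase that removes Frizzled receptors from the cell surface and is induced by beta-catenin, was 1.78-fold lower, at 641 and 359. Destruction complex and Dishevelled genes numbered 21 measured of 26, 0 outside 2-fold, with AXIN1, the constitutive AXIN scaffold, at 393 and 279 (log2 ratio -0.49) and the kinase gene CSNK1E at 1367 and 976 (-0.49; its other probe set 470 and 238, -0.98). Of 19 genes for beta-catenin and its nuclear partners 17 were measured and 0 were outside 2-fold. Their 3 largest differences were in LEF1 at 421 and 300 (-0.49), the junction protein gene JUP at 191 and 269 (0.49), and the TCF family gene TCF7L1 at 176 and 129 (-0.45). Another LEF1 probe set went the opposite way, from 70.4, below the floor, to 88.8, a log2 ratio of at least 0.32. Dimmer probe sets of DVL2 and PYGO1 were past 2-fold. DVL2 read 800 and 969 on its brightest probe set and 127 and 268 (2.10-fold higher) on the other. PYGO1 read 114 and 150 on its brightest and 185 and 73.6 (2.51-fold lower) on the other measured one.

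The planar polarity and calcium branch, which signals without beta-catenin, held 2 of the 3 lower genes among 19 measured of 21. That is 10.5% outside 2-fold, beside 2.25% of all measured genes past it downward and 4.05% in all. The list was chosen with earlier results of these data known, so this share is a description and not support for a change. NFATC2, a calcium-regulated transcription factor, read 364 with the vector and 10.6 with S100A7, at least 5.28-fold lower. Its other measured probe sets read 326 and 9.26, and 99.0 and 6.21, so all 3 were above the floor with the vector and below it with S100A7. PLCB4, a phospholipase that acts upstream of calcium release, read 169 and 45.0, lower by at least 2.45-fold, and the other PLCB4 probe set read 112 and 18.9, lower by at least 1.63-fold. With a floor at the 70th percentile, neither NFATC2 nor PLCB4 counted as past 2-fold. With the median over probe sets, PLCB4 did not. PRICKLE2, a core planar polarity gene, read 314 and 183 (1.72-fold lower).

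Listed target genes of beta-catenin did not share one direction. Of 32 listed 20 were measured, 8 with a log2 ratio above 0 (40%, next to 45.8% of all measured genes), and the median was -0.15. DKK1 was the 1 gene at least 2-fold higher. MET, the receptor for hepatocyte growth factor, was the 1 past 2-fold downward, with intensities of 1285 with the vector and 623 with S100A7, with its 4 probe sets between -1.11 and -0.82. The 40 genes nearest to MET had a median of -0.44, and its log2 ratio was -0.61 after subtraction.

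**Figure D5:**
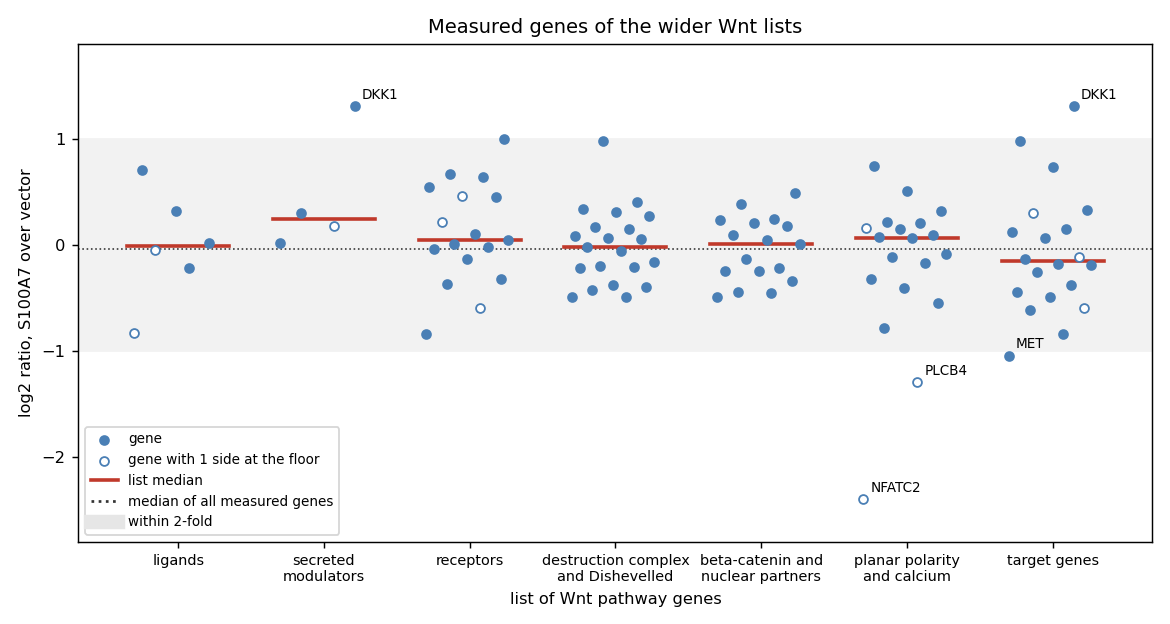
Log2 ratio of the S100A7 over the vector array for the measured genes of 7 lists of Wnt pathway genes (open circles where 1 side is at the floor), with list medians in red, the median of all measured genes (-0.04) dotted and the range within 2-fold in grey. DKK1 (1.32), shown in both lists that hold it, is the 1 gene above the band, and NFATC2 (-2.40), PLCB4 (-1.29) and MET (-1.04) lie below it.

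Outside these lists, 311 genes had several measured probe sets that each differed by 1.5-fold or more in 1 direction. The 3 with a computed log2 ratio nearest to that of DKK1 were SMAD6, TLR3 and SORBS2, but a nearness can be read for TLR3 alone. TLR3, a sensor of double-stranded RNA, read 119 with the vector and 297 with S100A7 (2.49-fold higher), and its other probe set gave a log2 ratio of 1.09. SMAD6, an inhibitor of BMP signalling, and the cytoskeletal adaptor gene SORBS2 were below the floor with the vector. SMAD6 read 44.4 and 177, at least 2.49-fold higher. SORBS2 read 10.7 and 184, at least 2.59-fold higher, so how far either lies from DKK1 is not known. The likeness is that of 1 ratio from 2 arrays.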

How the data were processed

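The authors deposited 1 MAS5 intensity per probe set for each of 2 Affymetrix arrays, per the submitters' processing notes; no source used here gives its version or scaling target. Trimming 2% from each end gave both arrays a mean of 500.1, and values were used as deposited. Columns left unused numbered 0. The platform's annotation table paired 41097 probe sets with 1 gene, of which 41043 matched a RefSeq table (GRCh38.p14) by Entrez identifier for current symbols and gene order. Log2 ratios were computed with Python 3.11.15, numpy 2.4.6 and pandas 2.3.3, with values below the floor raised to it. Counting was tested on simulated arrays with little noise and changes well past 2-fold in genes with bright probe sets. Dim genes and ratios near 2-fold were not covered by it. A line about embryos in the S100A7 sample's description cannot refer to these cells and was ignored.

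The 10 genes and the lists were chosen with earlier results of these data known. Named genes are the 10, each list's genes outside 2-fold or its 3 largest differences, and the 3 nearest to DKK1; other genes were named after their values were seen. Lists were described by counts and medians, without a test. Alternatives changed the scaling, floor, pseudocount, probe set choice, threshold and chromosomal adjustment.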

Additional observations from a re-analysis of the deposited data

How the results depend on the processing

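With 1 array per group no replicate could be left out. No paired analysis was possible because each group has 1 sample. DKK1 was at least 2-fold higher under 8 of 9 alternatives, the exception being subtraction of the chromosomal neighbours' median (log2 ratio 0.94). DKK1 has 1 bright probe set without a suffix. Changes of floor or probe set choice therefore left its log2 ratio at 1.32 by construction, and a pseudocount of 32 gave 1.31. Those alternatives could not test the DKK1 call. The count of the 10 genes at least 2-fold higher was 2 after dividing each array by its median (AXIN2 added, at 1.02) and 2 with a floor at the 30th percentile (WNT5A added, at 1.11, a value near that floor). It was 0 after subtracting the neighbours' median, 4 at a 1.5-fold threshold (AXIN2, FZD7 and WNT5B added) and 0 at 3-fold. None of the 10 was at least 2-fold lower under any of the 12 alternatives. In the wider lists the count higher was 3 after dividing by the median, 4 with the 30th percentile floor, 3 with no floor, 3 with a pseudocount of 32 and 3 without a filter, 0 after subtracting the neighbours' median, 8 at 1.5-fold and 0 at 3-fold. The count lower was 6 with the 30th percentile floor, 1 with the 70th, 6 with no floor, 5 with the pseudocount and 5 without a filter, 8 at 1.5-fold and 1 at 3-fold; with the median over probe sets it was 2, and after subtracting the neighbours' median also 2. Calls added by lower floors rest on dim values. The cause of the other differences was not tested. The sign turned for TCF7L2 after subtracting the neighbours' median (-0.03). With the median over probe sets AXIN2 was represented by a probe set without a direction, so no sign was read.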
